A study of Mus musculus with 10 samples.

Results

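Guidance genes encode the ligands and receptors through which cells attract or repel each other on contact or over a distance. The members were chosen by symbol alone: Eph receptors (Eph), ephrins (Efn), semaphorins of classes 3 to 7 (Sema), plexins (Plxn), Slits, Robo1 to Robo3, the netrins Ntn1 and Ntn4, and the netrin receptors Unc5b and Unc5c. The rule found 61 genes among the 21868 rows of the count table, and 57 of them had enough reads to be tested. The rule itself uses no measured value.

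Mouse embryonic stem (ES) cells with an intact Ldb1 gene (Ldb1+/+, WT) or without it (Ldb1-/-, KO) were differentiated as embryoid bodies, and cells carrying the VEGF receptor Flk1 were sorted from them. Ldb1 is an adaptor that joins transcription factors into complexes. The labels call these cells hemangioblast equivalents, the progenitors of blood and endothelium, and give no day for the RNA, no number of ES cell clones and no structure of the knockout allele. Both lines were grown in the same kind of medium, with serum, transferrin, ascorbic acid and monothioglycerol and without leukemia inhibitory factor. The labels give no other allele or agent, and what Ldb1 loss did and what else differed between the cell lines cannot be told apart. RNA sequencing gave 4 libraries per genotype, with total counts of 11258493 to 13483294 reads. In both genotypes, library 1 and library 2 were nearly as alike as repeat sequencing of 1 pool would be, and so were library 3 and library 4. Each such pair was summed and counted as 1 sample, which left samples A and B in each genotype (n = 2) with 22674679 to 26775787 reads. The labels name no separate cultures, so p-values measure only the spread between these samples, which may be technical.

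Ephrins and Eph receptors act between touching cells. Ephrin-A ligands are held in the membrane by a lipid anchor, ephrin-B ligands cross it, and binding signals into both cells. Class 3 semaphorins are secreted and most bind plexins together with a neuropilin, while semaphorins of classes 4 to 7 are largely membrane proteins that bind plexins directly. Slits are secreted ligands of Robo receptors, and netrins are secreted ligands of DCC and Unc5 receptors. In the early vessel, ephrin-B2 marks arterial and EphB4 venous endothelium, and plexin-D1 receives semaphorin 3E.

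The sorted cells were first checked against their markers. Kdr, which encodes Flk1, was present in every sample, at 439.5 and 605 counts per 1000000 (CPM) in WT A and B and at 236 and 78.6 CPM in KO A and B. The 18 listed endothelial markers summed to 1700.2 and 1356 CPM in WT and to 1041 and 483 CPM in KO. The 15 blood markers summed to 214 and 240.0 CPM in WT and to 28.6 and 30.0 CPM in KO. WT B stood apart from the other samples. The 12 primitive streak markers summed to 346 CPM in it, against 42.3 in WT A, 86.8 in KO A and 37.3 in KO B, and the 12 cardiac mesoderm markers (Mesp1 is on both lists) to 450.4 CPM against 127 to 143. The 12 pluripotency markers summed to 615 CPM in WT B against 2291 in WT A, 1077 in KO A and 1348 in KO B. Smooth muscle and mesenchyme markers (12 genes) summed to 1254 and 1788 CPM in WT and to 2898 and 4947 CPM in KO, and endoderm and epithelium markers (12 genes) to 1648 and 1752 CPM in WT and to 3264 and 4111 CPM in KO. Neuroectoderm markers (11 genes) summed to 313 and 291 CPM in WT and to 495 and 472 CPM in KO. Of the 9 with enough reads to be tested, 4 lay above WT in both KO samples and 0 below, against 23.2% and 22.4% of all genes tested. Hes5 and Neurog2 had 6 reads or fewer in every sample. The 12 paraxial mesoderm markers summed to 21.1 to 37.1 CPM, with Msgn1 at 8 reads in WT B and 0 in the other samples. In such bulk samples, fewer cells of a type and less RNA per cell cannot be told apart.

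**Figure D1:**
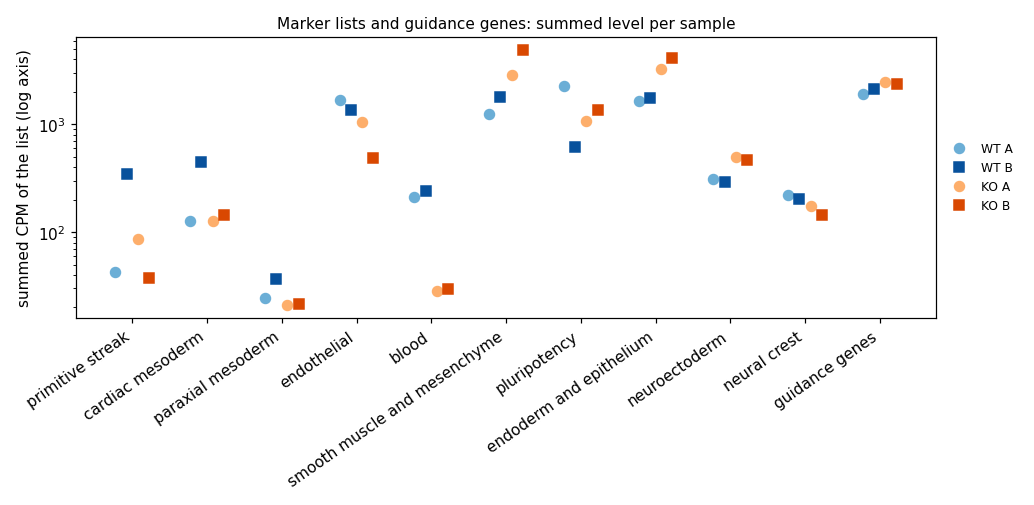
Summed level in CPM (log axis) of 10 marker lists and of the 61 guidance genes, with 1 point per sample (circles A, squares B). WT B lies above the other samples in primitive streak and cardiac mesoderm markers and below them in pluripotency markers, while the guidance genes sum to 1899.7 to 2469 CPM in all samples.

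The promoters of 5 members that carry the patterns described further on are shown, so that the start regions of genes with the same pattern can be compared. Unc5c and Plxna2 were highest in WT B, and Sema3c, Unc5b and Efna5 stood higher in both KO samples. Each is the 250 bases before the RefSeq start (GRCm38.p6), 5′ to 3′ on the gene's strand, from chr3:141465314-141465563 (plus) for Unc5c, chr1:194619579-194619828 (plus) for Plxna2, chr5:17574566-17574815 (plus) for Sema3c, chr10:60831582-60831831 (minus) for Unc5b and chr17:62881318-62881567 (minus) for Efna5. Capitals mark matches on either strand. The GATA motif was searched as AGATAA and in a second spelling as TGATAA. The E-box was searched in the spelling CAGCTG and likewise in the spelling CAGATG. The TCF/LEF motif was searched in the spelling CTTTGAT and likewise in the spelling CTTTGAA. The LIM homeodomain motif was searched as TAATTA.
Unc5c: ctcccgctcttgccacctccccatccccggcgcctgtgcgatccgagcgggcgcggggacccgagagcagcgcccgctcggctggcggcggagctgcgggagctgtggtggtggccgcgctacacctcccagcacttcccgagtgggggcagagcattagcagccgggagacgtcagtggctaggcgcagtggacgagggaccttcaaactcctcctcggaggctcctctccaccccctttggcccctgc
Plxna2: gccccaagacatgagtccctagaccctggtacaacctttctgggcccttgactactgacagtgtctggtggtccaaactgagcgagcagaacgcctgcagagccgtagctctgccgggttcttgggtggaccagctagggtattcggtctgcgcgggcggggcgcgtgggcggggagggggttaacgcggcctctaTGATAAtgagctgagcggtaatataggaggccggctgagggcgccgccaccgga
Sema3c: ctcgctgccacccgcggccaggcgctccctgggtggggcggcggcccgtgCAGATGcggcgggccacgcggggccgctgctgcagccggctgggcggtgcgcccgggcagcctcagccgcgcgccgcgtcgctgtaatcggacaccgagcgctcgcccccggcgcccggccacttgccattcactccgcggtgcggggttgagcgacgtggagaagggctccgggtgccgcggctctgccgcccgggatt
Unc5b: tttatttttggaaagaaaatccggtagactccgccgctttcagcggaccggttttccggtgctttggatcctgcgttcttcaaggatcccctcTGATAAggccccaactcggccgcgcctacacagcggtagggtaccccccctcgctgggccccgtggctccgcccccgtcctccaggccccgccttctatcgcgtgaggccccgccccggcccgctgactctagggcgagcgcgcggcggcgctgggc
Efna5: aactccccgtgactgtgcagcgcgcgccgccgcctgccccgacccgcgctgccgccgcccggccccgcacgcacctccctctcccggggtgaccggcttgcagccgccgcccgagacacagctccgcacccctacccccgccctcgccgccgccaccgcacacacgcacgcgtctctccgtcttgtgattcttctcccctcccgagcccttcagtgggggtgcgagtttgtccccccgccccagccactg

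In these windows the search found a GATA match 54 bases before the Plxna2 start and one 157 bases before the Unc5b start, and an E-box match 200 bases before the Sema3c start. Unc5c and Efna5 held none of these letters, so the genes of either pattern did not share a match. Of 69 windows for 53 members in the RefSeq table, 6 held a GATA match (8.70%, against 16.6% of all 32851 windows), 14 an E-box match (20.3% against 25.5%), 2 a TCF/LEF match (2.90% against 7.48%) and 3 TAATTA (4.35% against 4.84%). A GATA and a TCF/LEF match can share bases, but in 0 of the 69 windows did matches of different motifs overlap. Guidance gene promoters were rich in G and C, with a median of 64.4% against 52.4% in all windows, and in CpG, with a median observed to expected ratio of 0.611 against 0.373. A match is a description of the letters and not a site.

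Levels of different genes were compared per length, as CPM per 1000 bases (kb) of the deposited transcript length. The most abundant members were receptors. The netrin receptor gene Unc5b ranked first with a mean over the 4 samples of 44.8 CPM per kb (27.3 to 58.9), followed by the plexin genes Plxnb2 at 39.5 (29.5 to 46.2), Plxnd1 at 33.2 (18.7 to 46.3) and Plxna1 at 29.8 (23.3 to 37.3). The Eph receptor gene Ephb4 stood at 27.95 CPM per kb (23.9 to 30.4) and Efnb2, which encodes the ephrin-B2 ligand, at 21.4 (15.4 to 25.8). Neighbours among these 6 overlapped in their ranges over samples. The other 55 members had means of 11.9 CPM per kb or less. The 4 untested members were Epha3 with 14 WT and 8 KO reads, Epha8 with 32 and 19, Sema3d with 35 and 15, and Plxnb3 with 26 and 12.

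The comparison of KO with WT asks which of these genes differ in level between the sorted cells of the 2 genotypes. No guidance gene passed edgeR's quasi-likelihood test at an adjusted p of 0.05, which 0.185% of the 16785 genes tested passed. Of the 57 tested members, 20 had an unadjusted p under 0.05, 6 with a lower and 14 with a higher level in KO, where 7.86% of all genes tested were lower and 7.61% higher. Calls hereafter are at an adjusted p of 0.05. DESeq2 called 1 member lower and 10 higher, against 3.53% and 3.37% of all genes, and limma-voom called 0 in either direction. All KO samples lay above all WT samples for 18 members (31.6%, against 23.2% of all genes) and below them for 13 (22.8% against 22.4%). The members' median log2 difference was -0.03, against -0.01 over all genes tested, with 30 members below 0 and 27 above. With WT B left out, the fit called 1 member lower and 10 higher (5.75% and 3.98% of all genes tested), and with WT A left out it called 10 lower and 6 higher (4.47% and 4.46%). With KO A or KO B left out it called 0. In these fits the lone sample is assumed to vary like the others. No share of all genes is given for limma-voom or for the fits without KO A or KO B. Their counts of 0 are therefore not a result about the members.

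**Figure D2:**
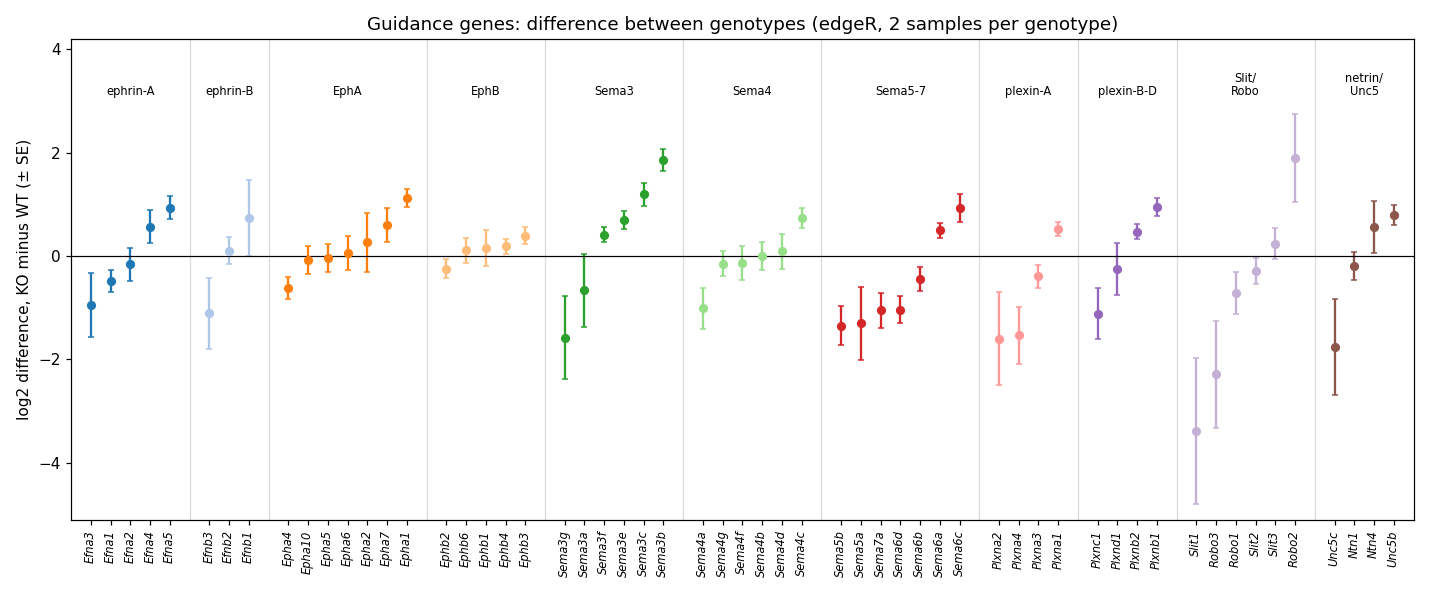
Log2 difference, KO minus WT, of the 57 tested guidance genes by family, with edgeR estimates as points and 1 SE as bars. Sema3b at 1.85 has a narrow bar, while Slit1 at -3.37 and Robo3 at -2.29 have wide ones because the WT samples differ.

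Class 3 semaphorins included the member with the smallest p. Sema3b (ENSMUSG00000057969, chromosome 9), a secreted semaphorin, stood at 14.2 and 17.4 CPM in WT A and B and at 48.7 and 65.1 CPM in KO A and B. Both KO samples were above both WT samples, with a log2 difference of 1.85 (SE 0.21), which did not pass edgeR (adjusted p = 0.0632) and did pass DESeq2 (9.28e-11). Without a filter on low counts, edgeR called Sema3b and Epha1. The log2 difference of Sema3b was 1.71 (SE 0.22) without WT A and 2.01 (SE 0.23) without WT B. It was 2.05 (SE 0.23) without KO A and 1.63 (SE 0.23) without KO B. Sema3c, a secreted semaphorin of the developing heart outflow tract, stood at 17.4 and 15.7 CPM in WT and at 30.8 and 45.03 CPM in KO (log2 difference 1.19, SE 0.23, edgeR adjusted p = 0.110). Sema3e, the ligand of plexin-D1, stood at 48.9 and 56.8 CPM in WT and at 74.9 and 97.0 CPM in KO (log2 difference 0.70, SE 0.18, adjusted p = 0.162). The KO samples of both genes lay above the WT samples, as did those of 23.2% of all genes tested. The fourth class 3 gene with no overlap was Sema3f, at 22.7 and 23.0 CPM in WT and at 29.8 and 31.1 CPM in KO (log2 difference 0.41, SE 0.15). These 4 of 6 tested class 3 members had an unadjusted p under 0.05 and a higher level in KO, against 7.61% of all genes tested. DESeq2 called 3 of them, against 3.37% of all genes, and no test of the class was made. The summed level of the class was 118 and 129 CPM in WT, against 194 and 243 CPM in KO.

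The remaining tested class 3 members differed between samples of one genotype. Sema3g, which is known from arterial endothelium, stood at 11.2 CPM in WT A, 3.43 in WT B, 3.67 in KO A and 1.21 in KO B (log2 difference -1.58, SE 0.80). In both genotypes sample B was below sample A by more than 2-fold. The summed endothelial markers were also lower in B than in A in both genotypes, and their part in the result was not tested. Sema3a, a classical repellent of growing axons, was highest in WT B, at 11.3 CPM against 3.03 to 5.87 in the other samples.

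Among the membrane semaphorins, members stood on both sides. Sema4c, a ligand of plexin-B2, stood at 25.1 and 34.5 CPM in WT and at 49.2 and 50.1 CPM in KO (log2 difference 0.74, SE 0.19, edgeR adjusted p = 0.166). Sema6c stood at 14.6 and 15.6 CPM in WT and at 21.8 and 35.7 CPM in KO (log2 difference 0.93, SE 0.27, adjusted p = 0.188). Sema6a, which binds class A plexins, stood at 59.5 and 58.1 CPM in WT and at 90.9 and 75.5 CPM in KO (log2 difference 0.50, SE 0.15, adjusted p = 0.192). In all 3 the KO samples lay above the WT samples. Sema6d, a ligand of plexin-A1 in the heart, lay on the other side, at 22.2 and 31.5 CPM in WT and at 15.1 and 11.1 CPM in KO. It was the only member that DESeq2 called lower (-1.04, adjusted p = 0.0179), and edgeR gave -1.03 (SE 0.26, adjusted p = 0.155). Sema5b stood at 8.75 and 6.04 CPM in WT and at 3.63 and 2.19 CPM in KO (log2 difference -1.35, SE 0.37, adjusted p = 0.179), and it was the one member called lower without WT B (-1.59, SE 0.36, 0.0145). Sema7a, which is anchored by lipid and binds plexin-C1, stood at 5.76 and 4.26 CPM in WT and at 2.85 and 1.99 CPM in KO (log2 difference -1.05, SE 0.34). Sema4a stood at 2.86 and 1.81 CPM in WT and at 1.34 and 0.976 CPM in KO (log2 difference -1.01, SE 0.40). These 4 genes and Sema6b (19.0 and 13.3 CPM in WT, 12.2 and 11.6 CPM in KO) lay below WT in both KO samples. Among all genes tested, 22.4% lay below WT in both KO samples and 23.2% above. Of the 7 tested members of classes 5 to 7, 3 had an unadjusted p under 0.05 and a lower level in KO and 2 a higher one. Of all genes tested, 7.86% were lower and 7.61% higher.

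The most abundant class 4 gene, Sema4b, did not separate the genotypes, at 55.3 and 32.6 CPM in WT and at 41.4 and 46.3 CPM in KO. Its log2 difference of -0.003 (SE 0.27) had a sign that turned with the setting. Sema4d, a ligand of plexin-B1, stood at 46.2 and 23.1 CPM in WT and at 38.4 and 35.4 CPM in KO (log2 difference 0.09, SE 0.35). Sema4b, Sema4d and Sema4f (5.46 and 3.43 CPM in WT) were all lower in WT B than in WT A, and the summed level of class 4 was 152 CPM in WT A, 115 in WT B, 147 in KO A and 157 in KO B. Sema4g stood at 16.9 and 19.8 CPM in WT and at 13.4 and 19.7 CPM in KO.

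Plexins are the receptors of semaphorins. Plxnb1, the receptor of Sema4D, stood at 52.4 and 64.5 CPM in WT A and B and at 122 and 103 CPM in KO A and B. Both KO samples lay above both WT samples, with a log2 difference of 0.95 (SE 0.17) that did not pass edgeR (adjusted p = 0.109) and passed DESeq2 (0.00034). The log2 difference of Plxnb1 was 0.80 (SE 0.19) without WT A and 1.11 (SE 0.19) without WT B. It was 0.83 (SE 0.21) without KO A and 1.06 (SE 0.21) without KO B. The gene model of Plxnb1 overlaps that of the noncoding gene Gm7628, which had 2.50 to 3.12 CPM, and the strand setting of the counting is not stated in these sources. Plxna1 stood at 150.5 and 166 CPM in WT and at 214 and 241 CPM in KO (log2 difference 0.53, SE 0.14, adjusted p = 0.166). Plxnb2 stood at 188 and 233 CPM in WT and at 294 and 291 CPM in KO (log2 difference 0.47, SE 0.15, adjusted p = 0.221). These 3 receptor genes, which are widely expressed, had an unadjusted p under 0.05.

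Plxnd1, the endothelial plexin, was the most abundant plexin whose WT and KO samples overlapped, at 319.5 CPM in WT A, 178 in WT B, 289.6 in KO A and 129 in KO B (log2 difference -0.25, SE 0.51, edgeR adjusted p = 0.895). The A samples were above the B samples in both genotypes, with B minus A at -0.84 in WT and -1.16 in KO on the log2 scale. The endothelial marker Cdh5, at 151, 84.3, 181 and 62.7 CPM in the same order, was also higher in A than in B. Kdr, at 439.5, 605, 236 and 78.6 CPM, was higher in A in KO only. The part of these markers in the result was not tested. Plxnc1 stood at 25.9 and 22.1 CPM in WT and at 16.2 and 6.01 CPM in KO (log2 difference -1.11, SE 0.49, adjusted p = 0.394), so that both KO samples lay below WT and KO B was the lowest. Plxna3 stood at 20.1 and 28.3 CPM in WT and at 19.7 and 17.3 CPM in KO (log2 difference -0.39, SE 0.22).

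Of the ephrins, Efna5 was the one that DESeq2 called. It encodes a lipid-anchored ligand of EphA receptors and stood at 19.1 and 27.9 CPM in WT and at 41.6 and 48.5 CPM in KO (log2 difference 0.94, SE 0.22, edgeR adjusted p = 0.144, DESeq2 adjusted p = 0.0113). Both KO samples lay above both WT samples. The log2 difference of Efna5 was 0.69 (SE 0.20) without WT A and 1.24 (SE 0.21) without WT B. It was 1.05 (SE 0.30) without KO A and 0.82 (SE 0.31) without KO B. Efna4 also lay above WT in both KO samples, at 6.06 and 10.7 CPM in WT and at 11.4 and 13.4 CPM in KO (log2 difference 0.57, SE 0.32). Efna1, known from endothelium, lay below, at 24.6 and 20.9 CPM in WT and at 18.5 and 13.9 CPM in KO (log2 difference -0.49, SE 0.21, edgeR adjusted p = 0.359). Efna3 was highest in WT B (12.6 CPM against 2.81 to 6.17), and Efna2 stood at 3.20 to 4.72 CPM in all samples.

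For the ephrin-B ligands, the WT samples differed from each other by more than the genotypes did. Efnb2, on chromosome 8, stood at 69.4 and 116 CPM in WT and at 104 and 95.1 CPM in KO, so that WT A was the lowest and WT B the highest. Its log2 difference was 0.10 (SE 0.26, edgeR adjusted p = 0.916) and became -0.14 once the median of its chromosome, 0.25, was removed. Efnb1 stood at 4.05 and 14.8 CPM in WT and at 10.1 and 21.2 CPM in KO (log2 difference 0.73, SE 0.74), with sample B above sample A in both genotypes. Efnb3, on chromosome 11, stood at 20.2 CPM in WT B and at 5.04 to 6.35 CPM elsewhere (log2 difference -1.10, SE 0.69, and -0.63 once the median of its chromosome, -0.47, was removed). On every chromosome other than 8 and 11, the median lay between -0.002 and 0.063.

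Among Eph receptors, Epha1 was the one that DESeq2 called. It stood at 18.3 and 17.7 CPM in WT and at 43.0 and 35.2 CPM in KO (log2 difference 1.12, SE 0.17, edgeR adjusted p = 0.0967, DESeq2 adjusted p = 5.03e-05). Both KO samples lay above both WT samples. The log2 difference of Epha1 was 1.14 (SE 0.22) without WT A and 1.10 (SE 0.22) without WT B. It was 0.98 (SE 0.20) without KO A and 1.26 (SE 0.20) without KO B. Its gene model overlaps that of Zyx, which encodes the adhesion protein zyxin. Zyx stood at 95.8, 126, 119.8 and 131 CPM in the same order (log2 difference 0.18, SE 0.17), and reads of the shared part cannot be assigned without strand. Epha4, a receptor of both ephrin classes, lay on the other side, at 33.3 and 40.2 CPM in WT and at 20.3 and 27.7 CPM in KO (log2 difference -0.62, SE 0.21, adjusted p = 0.246). Epha2 had its lowest level in WT B, at 16.3 CPM against 47.8 in WT A, 31.1 in KO A and 45.7 in KO B (log2 difference 0.26, SE 0.57), and its difference was -0.31 (SE 0.23) without WT B and 1.23 (SE 0.25, edgeR adjusted p = 0.011) without WT A. Epha7 stood at 6.96 and 13.02 CPM in WT and at 15.6 and 14.7 CPM in KO (log2 difference 0.60, SE 0.33). Like Efna4, it had WT A as its lowest sample and was called higher without WT B (1.13, SE 0.26, edgeR adjusted p = 0.0163; for Efna4 1.04, SE 0.29, 0.0348). Epha5, Epha6 and Epha10 stood between 1.51 and 6.78 CPM, with log2 differences of -0.08 to 0.06.

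No EphB receptor gene was called by edgeR or DESeq2. Ephb4, the venous partner of ephrin-B2, stood at 122.7 and 103.3 CPM in WT and at 132 and 126 CPM in KO (log2 difference 0.19, SE 0.14, edgeR adjusted p = 0.617). Ephb3 stood at 37.4 and 36.9 CPM in WT and at 43.8 and 54.0 CPM in KO (log2 difference 0.40, SE 0.16, adjusted p = 0.321). In both genes the KO samples lay above the WT samples, by less than 1.5-fold in the mean. Such separation was seen for 23.2% of all genes tested. Ephb2 lay below, at 23.0 and 28.2 CPM in WT and at 22.7 and 20.6 CPM in KO (log2 difference -0.24, SE 0.18). Ephb6 and Ephb1 stood at 1.77 to 7.39 CPM.

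Of the netrin receptors, Unc5b is known from endothelial tip cells. It stood at 159.9 and 223 CPM in WT A and B and at 320.2 and 345 CPM in KO A and B. Both KO samples lay above both WT samples, with a log2 difference of 0.80 (SE 0.19, edgeR adjusted p = 0.144, DESeq2 adjusted p = 0.00669). The log2 difference of Unc5b was 1.06 (SE 0.21) without WT B and 0.57 (SE 0.21) without WT A. It was 0.86 (SE 0.25) without KO A and 0.74 (SE 0.25) without KO B. The endothelial markers summed to less in KO than in WT, and their part in the result was not tested. The netrin genes themselves were low. Ntn1, on chromosome 11, stood at 6.66 and 5.28 CPM in WT and at 5.75 and 4.68 CPM in KO (log2 difference -0.20, SE 0.28, and 0.27 once the median of its chromosome, -0.47, was removed). Ntn4 stood at 1.75 and 2.30 CPM in WT and at 1.68 and 4.29 CPM in KO.

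**Figure D3:**
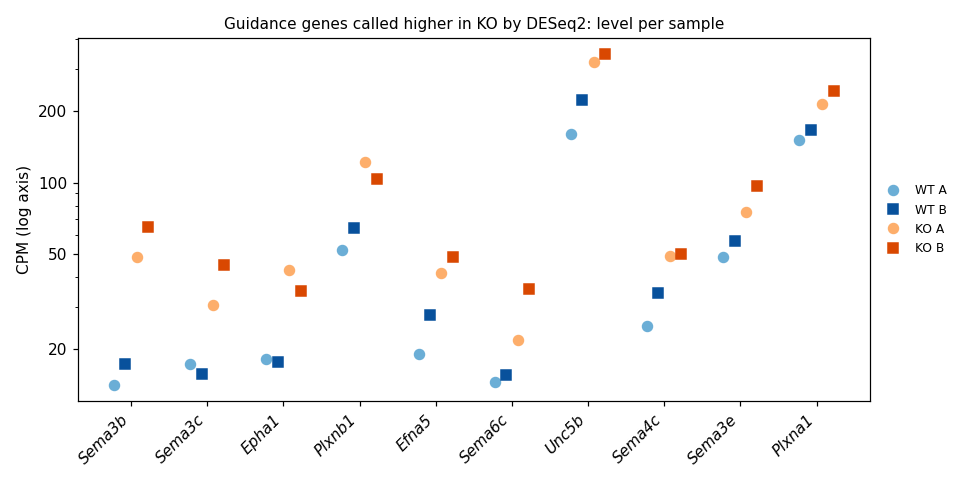
Level in CPM (log axis) of the 10 guidance genes that DESeq2 called higher in KO, with 1 point per sample (circles A, squares B). The genes were chosen from these same samples, so that KO lying above WT is largely given by the choice. It holds for all 10 and for 23.2% of all genes tested. For Sema3b the KO samples stand at 48.7 and 65.1 CPM against 14.2 and 17.4 CPM in WT.

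These 10 genes were Sema3b, Sema3c, Epha1, Plxnb1, Efna5, Sema6c, Unc5b, Sema4c, Sema3e and Plxna1. With any 1 sample left out, the edgeR log2 difference of all 10 stayed above 0. These fits reuse the samples that chose the 10 genes and add no support to them. The summed smooth muscle and mesenchyme markers and the summed endoderm and epithelium markers were higher in both KO samples too. DESeq2 called 8 of 11 tested genes of the first list and 4 of 11 of the second higher, against 3.37% of all genes. It called 0 lower, against 3.53%. By edgeR 1 and 0 were higher, against 0.0596%. The part of these markers in the results for the 10 genes was not tested.

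A second group of members was chosen by a higher level in WT B than in WT A, whatever the KO samples did. In this group both KO samples lay below WT for Robo3 and Plxna4 and above WT for Robo2. Of all genes tested, 22.4% lay below and 23.2% above in this way. WT B was at least 2-fold above WT A for 12 of the 57 tested members (21.1%), against 3.68% of all genes tested, and at least 2-fold below it for 2 (3.51% against 5.73%). In KO, sample B was at least 2-fold above sample A for 4 members (7.02% against 1.39%) and below it for 4 (7.02% against 2.13%). These are comparisons of 1 sample with 1 sample and carry no test. Slit1, a secreted ligand of Robo receptors, had 44 reads in WT A, 805 in WT B, 45 in KO A and 30 in KO B, or 1.88, 30.4, 1.94 and 1.17 CPM. Unc5c, a netrin receptor that mediates repulsion, stood at 8.02, 50.5, 10.3 and 6.95 CPM in the same order. Plxna2, a receptor of class 3 and class 6 semaphorins, stood at 8.96, 45.6, 12.4 and 5.62 CPM. For these 3 genes WT B alone was high and the other WT sample lay within or near the KO range.

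Receptors and ligands of other classes had the same shape. Robo3, a divergent Robo receptor of commissural axons, stood at 13.5 CPM in WT B against 1.47 to 1.66 CPM elsewhere. Plxna4 stood at 14.8 CPM in WT B against 2.89 to 5.25 CPM, and Sema5a, a transmembrane semaphorin, at 18.4 CPM against 3.59 to 5.83 CPM. With Slit1, Unc5c, Plxna2, Efnb3 and Efna3 these are the 8 members in which WT B was the highest and at least 2-fold above each other sample (14.0% of members, against 1.54% of all genes tested). Robo1, a main Slit receptor, stood at 48.3 and 100.4 CPM in WT and at 53.2 and 37.4 CPM in KO (log2 difference -0.72, SE 0.41, edgeR adjusted p = 0.508).

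**Figure D4:**
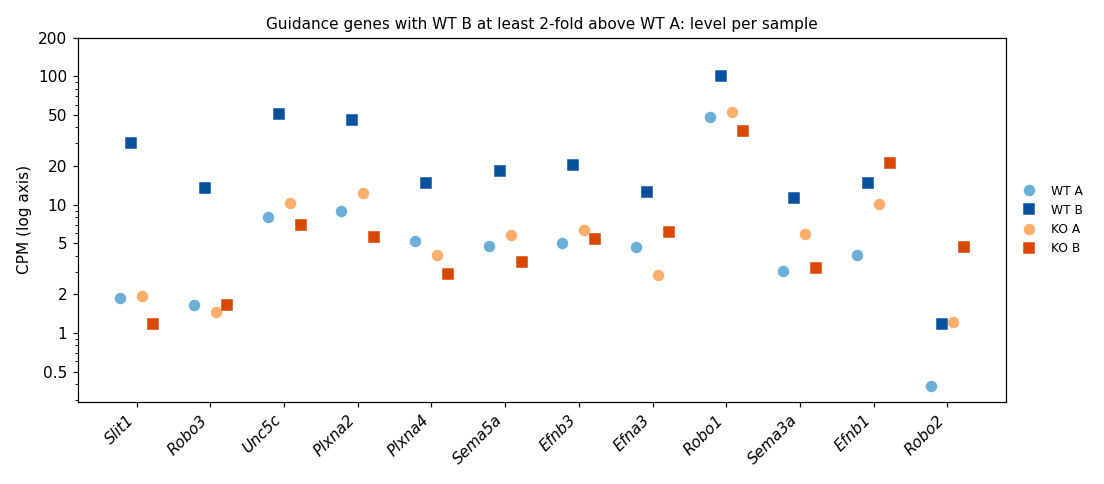
Level in CPM (log axis) of the 12 guidance genes in which WT B was at least 2-fold above WT A, with 1 point per sample (circles A, squares B). WT B is the highest sample in all but Efnb1 and Robo2, in which KO B is highest at 21.2 and 4.64 CPM.

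For Slit1, Unc5c and Plxna2, the KO minus WT difference rested on WT B. Slit1 had a log2 difference of -3.37 (SE 1.41, edgeR adjusted p = 0.383), which was -4.30 (SE 0.30) without WT A and -0.27 (SE 0.46) without WT B. Unc5c had -1.76 (SE 0.93, adjusted p = 0.487), with -2.56 (SE 0.24) and 0.11 (SE 0.32) in the same 2 fits, and Plxna2 had -1.60 (SE 0.90, adjusted p = 0.515), with -2.35 (SE 0.56) and 0.01 (SE 0.48). For Robo2 and Efnb1, whose highest sample was KO B, the difference was larger without WT B, at 2.93 (SE 1.15) and 1.95 (SE 0.54). Without WT A, WT B is the only WT sample, so genes chosen for a high WT B tend towards a lower level in KO in that fit. The fits without WT A and without WT B reuse the values that chose the group and therefore add no support to it. In WT B the primitive streak markers Eomes (116 CPM against 8.94 to 27.8) and Mesp1 (18.5 CPM against 0.117 to 0.778) and the cardiac mesoderm marker Hand1 (126 CPM against 6.36 to 9.90) were also highest. Of the 12 primitive streak markers, 11 were at least 2-fold higher in WT B than in WT A, as were 7 of the 12 cardiac and 4 of the 9 tested paraxial mesoderm markers. The share over all genes tested was 3.68%. So were 3 of 11 tested endoderm and epithelium, 2 of 11 smooth muscle and mesenchyme and 2 of 13 blood markers. At least 2-fold lower in WT B were 10 of 12 pluripotency and 5 of 18 endothelial markers, against 5.73% of all genes tested. The part of these markers in the results was not tested.

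**Figure D5:**
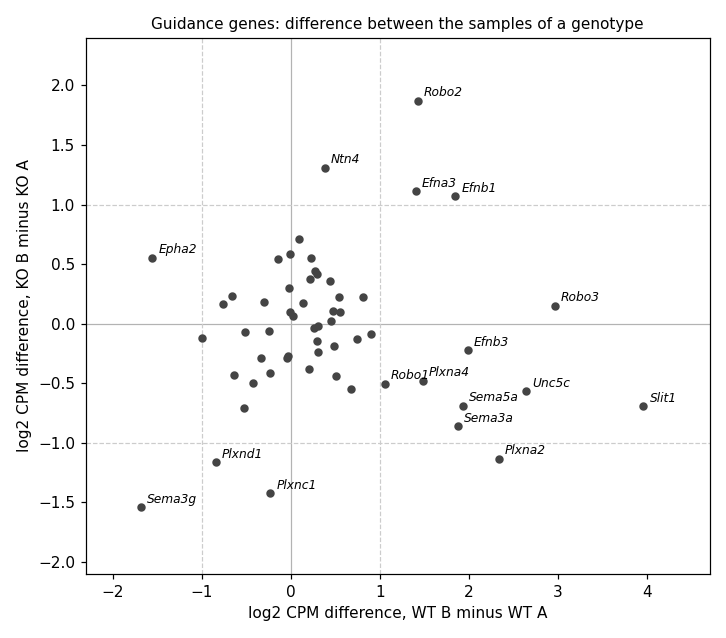
Log2 CPM difference between the samples of a genotype, sample B minus sample A, in WT (x axis) and in KO (y axis), with 1 point for each of the 57 tested guidance genes and dashed lines at 2-fold. Slit1, at 3.96 in WT and -0.69 in KO, lies farthest to the right, and Robo2, at 1.43 and 1.87, is high in B of both genotypes.

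Differences between samples A and B were not all of one kind. Robo2, Efnb1 and Efna3 were at least 2-fold higher in sample B in both genotypes. Robo2, a Slit receptor, stood at 0.384 and 1.17 CPM in WT and at 1.21 and 4.64 CPM in KO, from 9, 31, 28 and 119 reads, and its log2 difference of 1.90 (SE 0.85) did not pass edgeR (adjusted p = 0.394). Sema3g was at least 2-fold lower in sample B in both genotypes. Plxna2 went opposite ways, with B minus A at 2.34 in WT and -1.14 in KO. Slit3, on chromosome 11, had its lowest level in WT A, at 38.8 CPM against 62.0 in WT B, 70.7 in KO A and 48.3 in KO B (log2 difference 0.24, SE 0.30, and 0.71, SE 0.30, once the median of its chromosome was removed). Slit2, another Slit gene, stood at 10.2 and 13.9 CPM in WT and at 8.64 and 11.1 CPM in KO (log2 difference -0.29, SE 0.26).

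Coreceptors and cytoplasmic partners of these pathways were taken from a list of 76 genes, of which 75 were in the table and 70 were tested. By edgeR 1 of the 70 fell in KO and 0 rose, against 0.125% and 0.0596% of all genes tested. At an unadjusted p under 0.05 there were 5 lower and 15 higher genes, against 7.86% and 7.61% of all genes tested. Rnd2, of a family of small GTPases that bind plexins, fell from 27.3 and 29.9 CPM in WT to 7.43 and 6.44 CPM in KO (log2 difference -2.04, SE 0.18, edgeR adjusted p = 0.0476). The call held in edgeR with no filter (adjusted p = 0.00998). It was lost with samples A and B as a block (0.0832) and without KO A or KO B. Removing the median of chromosome 11, which carries Rnd2, also lost it (log2 difference -1.57, SE 0.18, 0.0647). The log2 difference was -2.12 without WT A, -1.97 without WT B, -2.14 without KO A and -1.94 without KO B. DESeq2 called 3 of the 70 lower and 5 higher, where it called 3.53% of all genes lower and 3.37% higher. The lower ones beside Rnd2 were the exchange factors Vav3 and Kalrn, and the higher ones were Vasp, Pak1, Dpysl3, Rras2 and Plxdc2. Vasp binds actin filaments, Pak1 is a kinase under Rac and Cdc42, and Dpysl3 is a collapsin response protein. Plxdc2 stood at 9.77 and 17.4 CPM in WT and at 27.2 and 30.3 CPM in KO (log2 difference 1.08, SE 0.30, edgeR adjusted p = 0.187), and Rnd3 at 32.6 and 71.8 CPM in WT and at 74.7 and 117 CPM in KO (log2 difference 0.87, SE 0.45). Chn2, which encodes a Rac GTPase activating protein, stood at 4.10 and 3.43 CPM in WT and at 4.79 and 8.74 CPM in KO (log2 difference 0.85, SE 0.37).

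The neuropilin genes, whose products bind class 3 semaphorins, differed from each other. Nrp2 was even over samples, at 98.9, 95.5, 112 and 80.9 CPM in WT A, WT B, KO A and KO B (log2 difference -0.01, SE 0.18). Nrp1, on chromosome 8, stood at 23.1, 80.2, 44.5 and 18.2 CPM in the same order (log2 difference -0.72, SE 0.76, edgeR adjusted p = 0.761), so that it was highest in WT B. Its log2 difference became -0.97 (SE 0.76) once the median of chromosome 8 was removed. L1cam, an adhesion molecule of growing axons that binds Nrp1, was also highest in WT B, at 50.1 CPM against 6.62 to 13.8 CPM (log2 difference -1.30, SE 0.99). Robo4, the endothelial Robo receptor, stood at 23.5 and 10.3 CPM in WT and at 8.73 and 4.57 CPM in KO (log2 difference -1.35, SE 0.53, adjusted p = 0.332). Its KO samples lay below its WT samples and its B samples below its A samples, as did those of the endothelial marker Pecam1 at 317, 131, 69.9 and 39.8 CPM. Not all of the 18 endothelial markers did so. Both KO samples lay below WT for 10 of them and above WT for 1, against 22.4% and 23.2% of all genes tested, and 7 overlapped. Their part in the result was not tested. The netrin receptor gene Dcc was at 0.117 to 0.469 CPM in all samples, too low to be tested.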

How the data were processed

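RNA-seq of sorted WT and KO cells was used as the authors' deposited raw read counts per Ensembl gene, beside which the file headers give a transcript length. The build mm9 and the tool DESeq come from the submitters' processing notes, while the sources used here name no aligner, counting tool, strand setting or annotation. The Ldb1 ChIP peaks, from day 4 cells, were not used here. Of 21868 rows, 20362 matched a symbol. A RefSeq table of GRCm38.p6, used for names and neighbours only, gave 19328 of them a chromosome.

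The mean chi-square per gene between 2 libraries, where a pair had 20 reads or more for the gene, was 1.065 to 1.101 for libraries 1 and 2 or 3 and 4 of a genotype and 12.764 to 45.22 for all other pairs, so the former were summed. After filterByExpr and TMM scaling, edgeR 4.0.16 (quasi-likelihood, robust) in R 4.3.3 tested KO against WT across all genes, with Benjamini-Hochberg adjustment at 0.05. The SE is the size of the log2 difference over the root of the F statistic. With 2 samples on each side, the smallest exact permutation p for a single value is 0.333. CPM is per 1000000 reads after TMM, and B minus A differences took log2 CPM at a prior count of 2. The fitting was tested on simulated data.

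Members and lists were chosen with earlier results of these data known. The rule for naming members took those past the test, the 8 lowest and 8 highest differences at 5 CPM or more, the 2 with the highest mean CPM of each family, and the 4 largest differences between the WT samples at 5 CPM or more. Of the listed partners it took those past the test, the 3 lowest, the 3 highest, Nrp1 and Nrp2. Other members, partners and markers were named after their values were seen. Alternatives were DESeq2 1.42.0, limma 3.58.1 (voom), other scalings, filters and thresholds, a block, leaving out libraries or samples, 8 separate libraries, and chromosome medians. Figures used matplotlib 3.10.9.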

Additional observations from a re-analysis of the deposited data

How the results depend on the processing

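The number of members past the test, 0 lower and 0 higher, stayed at 0 with every other scaling tried, with limma-voom, with 1 CPM in at least 2 samples, at an adjusted p of 0.01, against a 1.5-fold change, with a replicate block of samples A and B, with chromosome medians removed and without the genes of chromosomes 8 and 11. DESeq2 gave 1 lower and 10 higher (3.53% and 3.37% of all genes tested), and no filter gave 2 higher (0.329% of all genes). Fitting 8 libraries separately, which counts near copies as replicates, gave 9 lower and 14 higher, and 9 lower and 16 higher with a replicate block. Leaving out a library or a sample gave 0 to 10 lower and 0 to 10 higher. At an unadjusted p under 0.05 the 6 lower became 10 with DESeq2, 2 against a 1.5-fold change, 17 with 8 libraries and 13 with their replicate block, and the 14 higher became 5 against a 1.5-fold change. Leaving out a library or a sample gave 1 to 16 lower and 5 to 17 higher. Where no share of all genes stands beside them here, these counts are not a result about the members. The cause of these shifts was not tested. Samples A and B share only a letter across genotypes (correlation of B minus A -0.077 over 11075 genes), and their replicate block changed no member's call.

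Of 32 named members, Sema4b (-0.0028) changed sign to 0.053 with limma-voom, 0.0060 with no filter, 0.043 with the replicate block of samples A and B, 0.035 with 8 libraries and their block, 0.42 without WT A and 0.082 without KO A, and it ran from -0.033 to 0.025 without single libraries. Efnb2 became -0.14 with chromosome medians removed and -0.23 without WT A. Without WT A, Slit3 became -0.065 and Plxnd1 0.23. Without WT B, Epha2 became -0.31, Efnb3 0.23, Unc5c 0.11 and Plxna2 0.012. Slit3 became -0.055 without KO A, and without KO B Epha2 became -0.040 and Plxnd1 0.22. With 2 samples per genotype the spread itself is poorly known.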
